A study of Mus musculus with 10 samples.

Results

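The mitochondrial β-oxidation enzymes described here were 10 genes, chosen by name and matched by symbol in the deposited table of read counts. They were Cpt1a, Slc25a20, Cpt2, Acadvl, Acadl, Acadm, Hadha, Hadhb, Acaa2 and Etfdh. Each symbol stood on a single line of the table, so they made up 10 of 39017 listed genes, and all 10 were among the 15922 genes that passed the filter on low counts. The study deleted the glucose transporter Glut1, encoded by Slc2a1, in a mouse model of lung adenocarcinoma and asked how the tumour transcriptome differed from controls. Tumours were started in C57BL/6 mice by intratracheal delivery of Ad5CC10-Cre, an adenovirus in which a promoter active in CC10-positive club cells drives Cre recombinase. All mice carried, among other alleles, p53Fl/Fl, which Cre deletes (KP), and the KPG1 mice carried Glut1Fl/Fl as well. At 20 weeks and 1 day tumours were macrodissected and dissociated, immune cells were removed with CD45 beads, and polyadenylated RNA of the remaining fraction was sequenced from 5 control libraries and 5 libraries labelled Glut1-KO. The genotype label of the controls was heterozygous for the floxed Glut1 allele, whereas the text on the design called them wild type, and the study's methods allowed both. Every control was labelled male, as were replicates 4 and 5 labelled Glut1-KO, and replicates 1 to 3 labelled Glut1-KO were female.

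Mitochondrial β-oxidation shortens fatty acyl-CoA by repeated rounds of dehydrogenation, hydration, a second dehydrogenation and thiolysis, and delivers acetyl-CoA, NADH and reduced flavoprotein. Long-chain acyl groups reach the matrix through the carnitine shuttle, in which Cpt1 on the outer membrane is the regulated entry step. In the lung, alveolar type 2 (AT2) cells handle large amounts of fatty acid for surfactant, and the pathway shares the acyl-CoA pool with lipid synthesis.

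Totals ran from 35.3 to 49.8 M counts (M, mega) per library. Slc2a1 stood at 73.2 to 118 counts per M, scaled by the trimmed mean of M values (TMM-scaled CPM), in the controls and at 34.6 to 60.3 in the 3 female libraries labelled Glut1-KO. In the 2 male libraries labelled Glut1-KO it stood at 92.4 and 102.9 CPM, inside the control range, so their label was not borne out by the transcript of the targeted gene, and the members' values are given with and without them below. Defining AT2 markers were abundant in every library, with a sum over 10 genes of 27866 to 85961 CPM in controls and 52479 to 73312 CPM in libraries labelled Glut1-KO, led by the surfactant gene Sftpc. Of tissues rich in β-oxidation, skeletal muscle markers (6 genes, led by Acta1, with Myh1 at 0) summed to at most 1.85 CPM and adipocyte markers (6 genes, led by Cidec, with Lep at 0) to at most 8.74 CPM. Cardiac markers (8 genes, led by Tnnt2, with Nppa at 0) summed to 4.08 to 37.6 CPM in controls, with the highest value in replicate 3, and to 5.57 to 18.4 CPM in libraries labelled Glut1-KO. A number in the deposited names that the labels do not explain, possibly the mouse, took 2 values among the controls (replicates 1, 2 and 5 against 3 and 4) and 4 among the libraries labelled Glut1-KO (replicates 4 and 5 shared one). Nothing in the labels said that libraries came from separate animals, so the p-values below measure the spread between these libraries. In bulk RNA, fewer cells of a type and less RNA per cell cannot be told apart.

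Before the values, 3 promoter windows from RefSeq are shown, because they belong to the members whose levels were most alike and to the member whose partner shares its promoter. Each window holds 250 bases before and 50 bases after the RefSeq start on GRCm38.p6, printed 5′ to 3′ on the strand of the gene. Capitals mark GC boxes (GGGCGG) and CCAAT boxes (CCAAT), searched on both strands. The Cpt1a window (chr19:3323051-3323350, plus strand) and the Acadl window (chr1:66863260-66863559, minus strand) are from the pair with the highest correlation across libraries, and the Hadhb window (chr5:30155003-30155302, plus strand) is from a pair of genes that point away from each other.
Cpt1a: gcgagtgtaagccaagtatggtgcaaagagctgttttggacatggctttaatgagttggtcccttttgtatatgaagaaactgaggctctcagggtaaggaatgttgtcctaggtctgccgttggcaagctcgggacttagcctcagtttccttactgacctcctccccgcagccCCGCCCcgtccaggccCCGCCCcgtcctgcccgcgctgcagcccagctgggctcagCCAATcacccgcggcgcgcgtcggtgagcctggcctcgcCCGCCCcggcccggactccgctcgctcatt
Acadl: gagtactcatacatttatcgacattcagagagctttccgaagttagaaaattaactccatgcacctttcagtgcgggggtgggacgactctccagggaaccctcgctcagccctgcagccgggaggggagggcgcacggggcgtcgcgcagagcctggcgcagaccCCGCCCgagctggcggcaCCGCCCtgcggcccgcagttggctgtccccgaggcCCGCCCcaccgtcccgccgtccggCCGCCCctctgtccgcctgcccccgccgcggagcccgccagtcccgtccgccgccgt
Hadhb: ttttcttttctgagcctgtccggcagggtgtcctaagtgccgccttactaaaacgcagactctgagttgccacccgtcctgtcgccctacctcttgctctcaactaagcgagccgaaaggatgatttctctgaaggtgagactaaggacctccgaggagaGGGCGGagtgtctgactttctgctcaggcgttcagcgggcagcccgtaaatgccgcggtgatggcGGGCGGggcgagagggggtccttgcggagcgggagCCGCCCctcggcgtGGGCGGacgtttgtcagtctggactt

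Hadhb and Hadha encode both subunits of one enzyme complex and start back to back on chromosome 5. In GENCODE the 5′ end of Hadha (chr5:30118304-30155162, minus strand) lay 86 bases from that of Hadhb (chr5:30155248-30184593, plus strand), and 228 of the 300 bases of the Hadhb window were also in the Hadha window. The Acadl window had 4 GC boxes and a G+C content of 70.3%, the Hadhb window 4 GC boxes and 60.7%, and the Cpt1a window 3 GC boxes, 1 CCAAT box and 62.3%. The Cpt1a window lay inside the GENCODE span of the gene, whose annotated 5′ end is further upstream.

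Windows were given for 9 of the 10 members, Acaa2 being the exception, and 8 of the 9 lay above the median G+C content of all 32851 mouse promoter windows, 52.7%. A GC box was present in 7 of 9 member windows, against 35.7% of all windows, and a CCAAT box in those of Cpt1a and Etfdh, against 37.4%. The letters TATAAA were in 0 of 9, against 13.6%. The nuclear receptor half-site AGGTCA was in 3 of 9 (Cpt1a, Acadm and Acadvl), against 16.3%, whereas 2 such half-sites in direct repeat with 1 base between them, the type of element that PPARα with RXR binds, was in 0 of 9, against 0.0396%. The extended half-site TCAAGGTCA, which oestrogen-related receptors bind and which overlaps the AGGTCA motif, was in 0 of 9, against 0.423%, and the NRF1 motif, which is GCGCA joined to its reverse complement TGCGC, was in that of Etfdh, against 0.971%. These are matches of letters within short windows.

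Across the pathway, 9 of the 10 members had a higher mean in the libraries labelled Glut1-KO and 1, Acadvl, a lower one, but no member passed the test. In limma on voom values, with p-values adjusted over all genes by the Benjamini-Hochberg method, 0 of 10 members had an adjusted p under 0.05, and neither did any other gene (0 of 15922, 0%). The log2 fold change (libraries labelled Glut1-KO over control) had a median of 0.25 over the members and -0.0049 over all tested genes, of which 49.3% had a positive value. At an unadjusted p under 0.05, limma gave 2 members, Hadha and Acaa2, both higher, against 7.68% of all genes in either direction, 3.66% higher and 4.02% lower. Over 25 fits with other scalings, filters, terms or libraries, the share of all genes with such a p varied. It was lowest without replicate 3 labelled Glut1-KO (896 of 16121) and highest for female libraries labelled Glut1-KO against all controls (2260 of 16430). In these fits 1 to 4 members had such a p, Acaa2 in 23 of the 25 and Hadha in 12. Hadha lost it in limma with library totals (unadjusted p = 0.0987), with counts summed per name number (0.0716) and with a filter on mean TPM (0.0564). Hadha also lost it when any single library other than control replicate 2 or replicate 5 labelled Glut1-KO was left out, with p up to 0.108 without control replicate 4. Both members lost it with sex as a covariate and among male libraries alone. All controls were male, so these 2 fits both set only the male libraries labelled Glut1-KO against the controls. DESeq2 passed 0 members and 215 genes (1.35%), and edgeR's quasi-likelihood test 0 members and 0 genes (1409 at an unadjusted p under 0.05). The 2 groups overlapped for every member, so that 0 of 10 were free of overlap, against 1.85% of all genes (0.798% higher and 1.06% lower). The plot of fold changes shows that the 95% intervals of Hadha and Acaa2 lay above 0 and those of the other 8 crossed it.

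**Figure D1:**
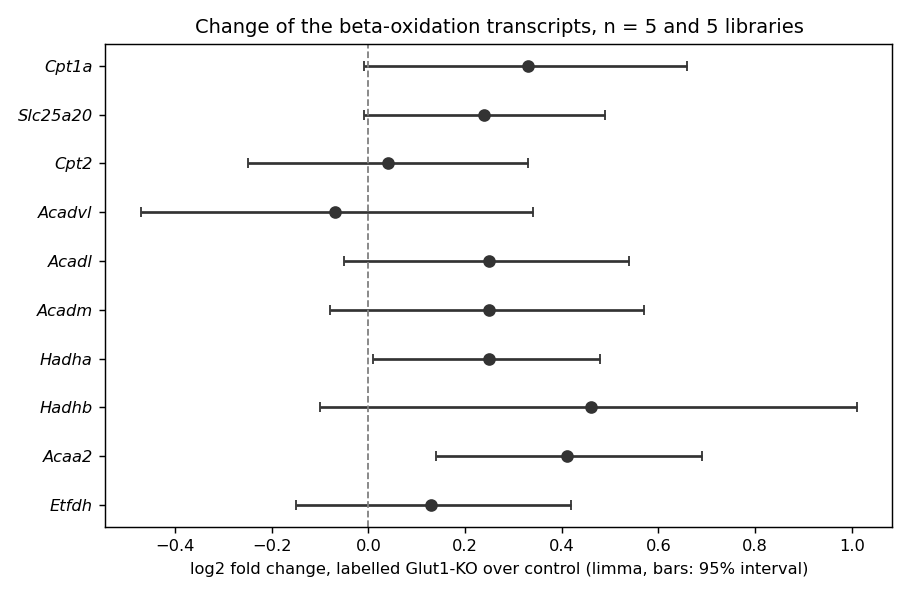
Log2 fold change of each β-oxidation gene between libraries labelled Glut1-KO and controls (x axis, limma, n = 5 and 5 libraries), with bars for the 95% interval. Acaa2 (0.41) and Hadhb (0.46) have the highest values, the Hadhb interval is the widest, from -0.10 to 1.01, and only Acadvl (-0.07) lies below 0.

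Summed over the 10 members, the level was 1056.2, 910.9, 1109.8, 1001 and 968.8 CPM in control replicates 1 to 5. In replicates 1 to 5 labelled Glut1-KO the sum was 1117.1, 1264.8, 1257.1, 1190.6 and 1118.1 CPM. The 2 groups did not overlap, although control replicate 3 came close to replicates 1 and 5 labelled Glut1-KO, and the mean was 17.9% higher. With library totals in place of TMM, the sums spanned 964.7 to 1091.9 CPM in controls and 1101.2 to 1345.5 CPM in libraries labelled Glut1-KO. The sum weighs abundant transcripts such as Acadl and Hadha most. Summed as reads per kilobase of the principal transcript per M, the groups overlapped, with 488.4 in control replicate 3 and 488.2 in replicate 1 labelled Glut1-KO. How often sums over other genes are free of overlap was not tested. With each member standardized across libraries, the mean of the members spanned -1.04 to 0.18 in controls and 0.12 to 0.88 in libraries labelled Glut1-KO, in SD units, and the groups overlapped. In the 3 female libraries labelled Glut1-KO alone the sum spanned 1117.1 to 1264.8 CPM and the standardized mean 0.12 to 0.88, the same ranges as in all 5. These sums and means are given as a description, with no test.

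**Figure D2:**
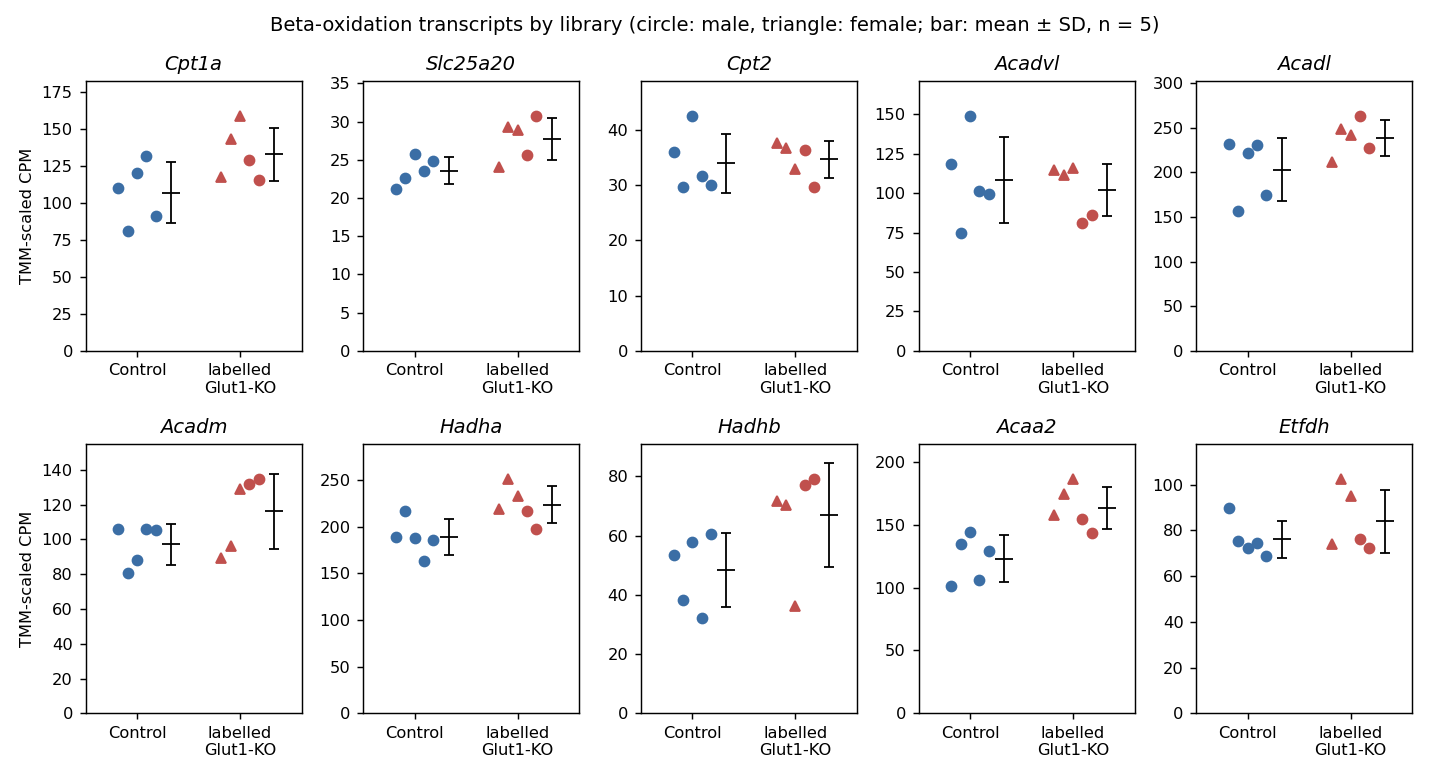
TMM-scaled CPM (y axes, each from 0) of the 10 β-oxidation genes in every library, control against libraries labelled Glut1-KO, with circles for male, triangles for female and bars for the mean ± SD (n = 5). Groups overlap in every panel, least for Acaa2, in which 4 of 5 libraries labelled Glut1-KO lie above all controls, and a single low library labelled Glut1-KO stands apart for Hadhb.

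The carnitine shuttle was described first. Cpt1a (chr19:3322334-3385733, plus strand) encodes the carnitine palmitoyltransferase of the outer membrane that commits long-chain acyl groups to oxidation and is inhibited by malonyl-CoA. In control replicates 1 to 5 it stood at 110.5, 81.3, 120.1, 131.6 and 91.2 CPM, and in replicates 1 to 5 labelled Glut1-KO at 117.7, 143.5, 158.9, 128.9 and 115.9 CPM. Only replicates 2 and 3 labelled Glut1-KO, both female, lay above all controls, whereas all 5 lay above the control median. The means were 106.9 ± 20.6 and 133 ± 18.2 CPM (SD over 5 libraries each), which gave a log2 fold change of 0.33 (SE 0.15, limma adjusted p = 0.664), and p was 0.0794 when the group labels were permuted over the libraries (exact permutation test, 2-sided). The smallest p this exact test allows is 0.00794, and its p-values are given unadjusted for the 10 members. With sample quality weights the log2 fold change of Cpt1a was 0.19. Other forms of the enzyme were scarce, with the muscle form Cpt1b at 0.0759 to 0.313 CPM over all libraries and the brain form Cpt1c at 2.4 to 9.7 CPM.

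Slc25a20 (chr9:108662088-108684641, plus strand) encodes the carnitine-acylcarnitine translocase, which exchanges acylcarnitine for carnitine across the inner membrane. It had 21.2, 22.6, 25.7, 23.5 and 24.8 CPM in control replicates 1 to 5 and 24.1, 29.3, 28.9, 25.6 and 30.7 CPM in those labelled Glut1-KO. Replicates 2, 3 and 5 labelled Glut1-KO exceeded every control, and the others lay within the control range. The mean went from 23.5 ± 1.78 to 27.7 ± 2.75 CPM (SD over 5 libraries each), which gave a log2 fold change of 0.24 (SE 0.11, limma adjusted p = 0.668; exact permutation p = 0.0397). It had the smallest spread among controls of all members, with a coefficient of variation of 7.58%.

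Cpt2 (chr4:107903981-107923610, minus strand), the inner membrane transferase that returns acyl groups to CoA in the matrix, was the member with the smallest difference. Its levels were 36.0, 29.6, 42.5, 31.6 and 30.1 CPM in control replicates 1 to 5 and 37.7, 36.8, 33.0, 36.3 and 29.7 CPM in those labelled Glut1-KO. Every library labelled Glut1-KO was inside the control range. The log2 fold change was 0.04, with a 95% interval of -0.25 to 0.33 (limma adjusted p = 0.958; exact permutation p = 0.754), and its sign turned, to -0.04, among the male libraries alone.

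The acyl-CoA dehydrogenases catalyse the first step of each round and differ in the chain length they accept. Acadvl (chr11:70010183-70015411, minus strand), which takes very long chains and sits at the inner membrane, was the only member with a lower mean in libraries labelled Glut1-KO. It stood at 118.3, 74.9, 148.9, 101.4 and 99.2 CPM in control replicates 1 to 5, the widest control range among the dehydrogenases relative to the mean. In those labelled Glut1-KO it stood at 115.0, 111.7, 115.7, 81.3 and 86.3 CPM, with the 3 female libraries close together and both male libraries below them. The means were 108.5 ± 27.4 and 102 ± 16.8 CPM (SD, n = 5 each), and the log2 fold change was -0.07 (95% interval -0.47 to 0.34, limma adjusted p = 0.947; exact permutation p = 0.714). Its sign rested on single libraries, being 0.06 without control replicate 3, 0.01 without replicate 4 labelled Glut1-KO and -0.19 without control replicate 2. Of its 2686 merged exon bases, 1151 (42.85%) are also exon of Dvl2 on the opposite strand. The strand setting used in counting was not given in the sources used here, so without strand reads of both genes could not be told apart there. Dvl2 itself stood at 14.9 to 19.7 CPM in controls and at 11.2 to 23.0 CPM in libraries labelled Glut1-KO.

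Acadl (chr1:66830839-66863277, minus strand), the long-chain dehydrogenase, had the highest level per length of all members. Controls had 231.5, 156.4, 222.2, 231 and 174.1 CPM in replicates 1 to 5, and libraries labelled Glut1-KO had 211.4, 248.9, 241.8, 263 and 227.9 CPM. Control replicates 2 and 5 were the low values, while control replicates 1, 3 and 4 were among those labelled Glut1-KO. The means were 203 ± 35.2 and 238.6 ± 19.8 CPM (SD over 5 libraries each), which gave a log2 fold change of 0.25 (SE 0.13, limma adjusted p = 0.709; exact permutation p = 0.111). The log2 fold change was 0.16 without control replicate 2 and 0.13 with sample quality weights.

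Acadm (chr3:153922357-153944632, minus strand) encodes the medium-chain dehydrogenase. It stood at 105.8, 80.6, 88.1, 105.8 and 105.1 CPM in control replicates 1 to 5 and at 89.2, 96.2, 128.7, 131.6 and 134.7 CPM in those labelled Glut1-KO. The libraries labelled Glut1-KO formed a lower pair, replicates 1 and 2, within the control range and a higher set, replicates 3 to 5, above all controls. The log2 fold change was 0.25 (SE 0.15, 95% interval -0.08 to 0.57, limma adjusted p = 0.734, exact permutation p = 0.127). It was 0.11 with sample quality weights and 0.47 with sex as a covariate, which set only the male libraries labelled Glut1-KO against the controls.

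The mitochondrial trifunctional protein carries out the remaining steps for long chains. Hadha encodes its α subunit, with hydratase and 3-hydroxyacyl-CoA dehydrogenase activity, and stood at 188.5, 217.3, 188, 163.4 and 186.2 CPM in control replicates 1 to 5. In those labelled Glut1-KO it stood at 218.5, 251.2, 232.7, 216.4 and 198 CPM. Replicates 1 to 3 labelled Glut1-KO, the female libraries, lay above all controls, and replicates 4 and 5 lay below the highest control, replicate 2. The means were 188.7 ± 19.1 and 223.4 ± 19.9 CPM (SD over 5 libraries each), which gave a log2 fold change of 0.25 (SE 0.11, 95% interval 0.01 to 0.48), with an unadjusted p of 0.0406, a limma adjusted p of 0.635 and p = 0.0238 in the exact permutation test.

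Hadhb encodes the β subunit, the long-chain thiolase. Its control levels were 53.4, 38.1, 57.7, 32.1 and 60.5 CPM in replicates 1 to 5, with replicates 2 and 4 well below the other 3. In those labelled Glut1-KO its levels were 71.8, 70.2, 36.1, 77 and 79.1 CPM, so that 4 of 5 lay above all controls while replicate 3 lay among the low controls. The means were 48.4 ± 12.5 and 66.9 ± 17.6 CPM (SD, n = 5 each), and the log2 fold change was 0.46 (SE 0.25, limma adjusted p = 0.71; exact permutation p = 0.143). The coefficient of variation, 25.9% in controls and 26.3% in libraries labelled Glut1-KO, was the largest of the members in both groups, and the highest library had 2.46 times the lowest.

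The levels of both subunits, given per length as RPKM (reads per kilobase of the principal transcript per M), did not follow each other closely. The ratio of Hadha to Hadhb was 1.8, 2.9, 1.66, 2.59 and 1.57 in control replicates 1 to 5 and 1.55, 1.82, 3.28, 1.43 and 1.28 in those labelled Glut1-KO. The 3 libraries with a high ratio, control replicates 2 and 4 and replicate 3 labelled Glut1-KO, were those with low Hadhb. The ratio averaged 2.11 ± 0.603 in controls and 1.87 ± 0.813 in libraries labelled Glut1-KO (SD, n = 5 each; exact permutation p = 0.492). Across 10 libraries, Pearson's r between the log2 levels of the subunits was 0.29 (permutation p = 0.419). Leaving out the 2 libraries farthest from the median of Hadha, a choice made without regard to Hadhb, gave an r of -0.35. The r was 0.45 among the 7 male libraries and -0.11 as deviations from the group means.

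**Figure D3:**
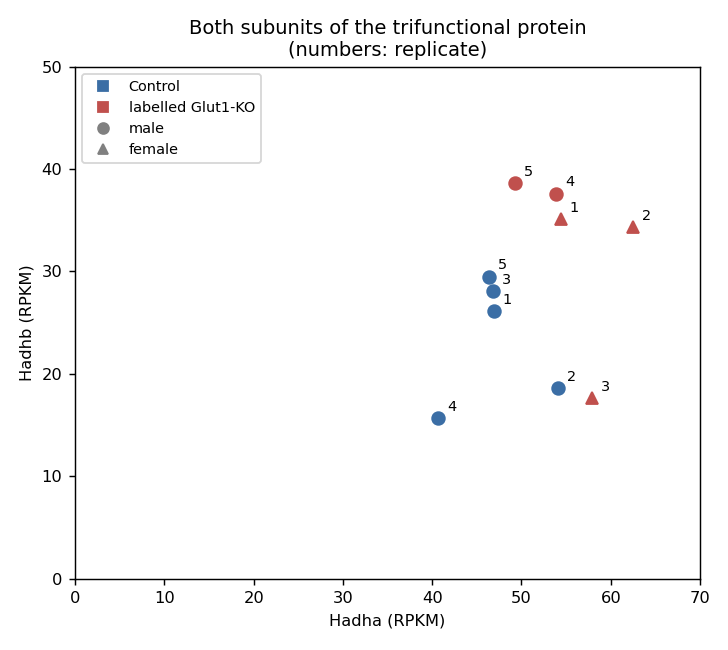
Levels of Hadha (x axis) and Hadhb (y axis) in RPKM, 1 point per library, with blue for control, red for libraries labelled Glut1-KO, circles for male, triangles for female and numbers for the replicate. Control replicates 2 and 4 and replicate 3 labelled Glut1-KO lie low, with Hadhb at 18.6, 15.7 and 17.6 RPKM, while the other 7 libraries lie between 26.1 and 38.6 RPKM.

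Acaa2 encodes the medium-chain 3-ketoacyl-CoA thiolase of the matrix, which releases acetyl-CoA at the end of a round. Controls had 101.1, 134.8, 144.2, 106.3 and 128.8 CPM in replicates 1 to 5. Libraries labelled Glut1-KO had 157.4, 174.5, 186.3, 154.3 and 143.6 CPM. Replicates 1 to 4 labelled Glut1-KO lay above all controls and replicate 5 just below the highest control, replicate 3. The means were 123.1 ± 18.6 and 163.2 ± 17.0 CPM (SD, n = 5 each), and the log2 fold change of 0.41 (SE 0.13, 95% interval 0.14 to 0.69) had the smallest p of the members, 0.00755 unadjusted. It did not pass after adjustment in limma (adjusted p = 0.449) or DESeq2 (adjusted p = 0.129), and the exact permutation test gave an unadjusted p of 0.0159.

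Etfdh (chr3:79603788-79629500, minus strand) encodes the ubiquinone oxidoreductase that passes electrons from the acyl-CoA dehydrogenases, by way of electron transfer flavoprotein, to the respiratory chain. It stood at 90.0, 75.3, 72.5, 74.3 and 68.8 CPM in control replicates 1 to 5 and at 74.2, 102.5, 95.1, 76.2 and 72.1 CPM in those labelled Glut1-KO. Replicates 2 and 3 labelled Glut1-KO were high and the other 3 were within the control range. The log2 fold change was 0.13 (SE 0.13, 95% interval -0.15 to 0.42, limma adjusted p = 0.827; exact permutation p = 0.246), and -0.03 among the male libraries alone. With each library left out in turn it ran from 0.06, without replicate 2 labelled Glut1-KO, to 0.20. An antisense neighbour, 4930579G24Rik, shares 278 (3.7%) of its merged exon bases and stood at 4.17 to 8.48 CPM in controls and at 1.9 to 4.35 CPM in libraries labelled Glut1-KO.

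Per length, Acadl and Acaa2 stood highest and Cpt2 and Slc25a20 lowest. Averaged over the 10 libraries, Acadl had 115.3 ± 17.1 RPKM (SD), Acaa2 94.4 ± 17.8, Acadm 52.1 ± 9.4, Hadha 51.3 ± 6.46, Acadvl 48.5 ± 9.99, Etfdh 33.7 ± 4.82, Hadhb 28.1 ± 8.48, Cpt1a 27.8 ± 5.3, Cpt2 14.5 ± 1.79 and Slc25a20 14.4 ± 1.74 RPKM. Against the tested genes, Acadl lay at the 96.5th percentile and Slc25a20 at the 65.0th. Acaa2 was above Acadm, Acadvl above Etfdh and Cpt1a above Cpt2 in 10 of 10 libraries each, and Acadl was above Acaa2 in 9. The other neighbours did not keep a fixed order, with Acadm above Hadha in 6 of 10 libraries, Hadha above Acadvl in 7, Etfdh above Hadhb in 6, Hadhb above Cpt1a in 7 and Cpt2 above Slc25a20 in 5. Some neighbours also stood in another order by group. Mean levels in controls were 50.1 RPKM for Acadvl, 47.4 for Acadm and 47.0 for Hadha, 24.8 for Cpt1a and 23.6 for Hadhb, and 14.3 for Cpt2 and 13.2 for Slc25a20. In libraries labelled Glut1-KO they were 47.0 RPKM for Acadvl, 56.7 for Acadm and 55.6 for Hadha, 30.8 for Cpt1a and 32.7 for Hadhb, and 14.6 for Cpt2 and 15.5 for Slc25a20. Acadl and Acaa2 also held ranks 1 and 2, and Slc25a20 rank 10, with the length of all merged exons, whereas Acadvl moved to rank 3, Acadm to rank 4, Hadha to rank 5, Cpt1a to rank 6, Cpt2 to rank 7, Etfdh to rank 8 and Hadhb to rank 9.

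**Figure D4:**
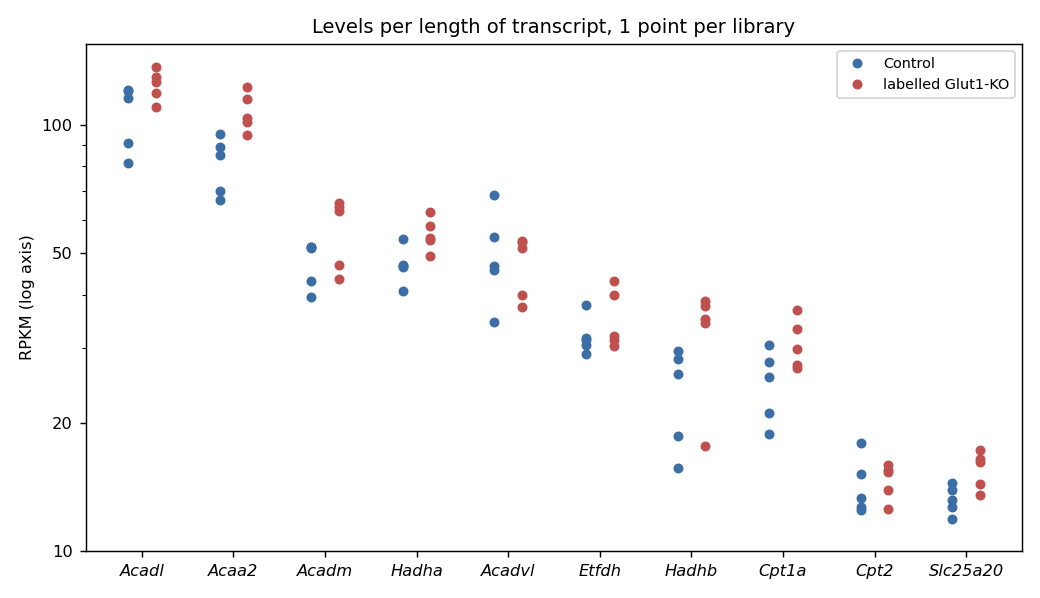
Level per length of the principal transcript (RPKM, log axis) of each β-oxidation gene in every library, ordered by the mean over 10 libraries, with control in blue and libraries labelled Glut1-KO in red. Acadl (81.6 to 137.3 RPKM) and Acaa2 (66.7 to 122.9 RPKM) lie at the top, and Cpt2 and Slc25a20 at the bottom with ranges that overlap.

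Because the male libraries labelled Glut1-KO kept control levels of Slc2a1, the female and the male libraries were also set against the controls in a single limma fit with 3 groups, an alternative chosen after seeing the data. This fit passed 11 genes (0.0691%) for female libraries against controls, 3 (0.0188%) for male libraries against controls and 8 (0.0502%) for female against male libraries, and 0 of the 10 members in any of the 3. As all controls were male, sex and genotype cannot be told apart in the first and sex and Slc2a1 level cannot be told apart in the last. Female libraries had the higher estimate for Acaa2 (0.50 against 0.29 in male libraries), Cpt1a (0.40 against 0.22), Hadha (0.32 against 0.14) and Etfdh (0.24 against -0.03). Male libraries had the higher estimate for Hadhb (0.74 against 0.27) and Acadm (0.47 against 0.10), whereas Slc25a20 (0.22 in female and 0.27 in male libraries) and Acadl (0.22 and 0.29) were close. Cpt2 was 0.09 in female and -0.04 in male libraries. Acadvl was 0.11 in female and -0.34 in male libraries, with a female minus male difference of 0.45 (SE 0.24, limma adjusted p = 0.338). The difference between female and male libraries was -0.47 for Hadhb (SE 0.34, limma adjusted p = 0.469) and -0.36 for Acadm (SE 0.19, limma adjusted p = 0.321), so none of these passed the test of the difference.

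To ask whether members varied together, correlations of log2 levels across the 10 libraries were computed for all 45 pairs. Of these, 38 were positive, the median r was 0.29 and the range ran from -0.26 to 0.89, and 0 pairs passed a Benjamini-Hochberg adjusted p of 0.05. As deviations from the group means, the median r was 0.11 and 26 of 45 were positive. Where the 2 farthest libraries are left out below, they are those farthest from the median of the first gene named in the pair. Cpt1a and Acadl, at the entry step and the long-chain dehydrogenase, had the highest r, 0.89 (Spearman's rho 0.75, permutation p = 0.00136 for r and 0.0175 for rho, adjusted p = 0.0524 and 0.357), which was 0.86 without the 2 libraries farthest from the median, 0.95 among the 7 male libraries and 0.83 as deviations from the group means. Hadha and Acaa2 followed with r = 0.83 (rho 0.81, permutation p = 0.00233 and 0.00698, adjusted p = 0.0524 and 0.314), 0.74 without the 2 farthest libraries, 0.67 among the male libraries and 0.64 as deviations from the group means. Slc25a20 and Acaa2 had r = 0.74 (rho 0.66, permutation p = 0.0161 and 0.0433, adjusted p = 0.194 and 0.357), 0.78 without the 2 farthest libraries, 0.68 among the male libraries and 0.42 as deviations from the group means. Cpt2 and Acadvl had r = 0.73 (rho 0.67, permutation p = 0.0172 and 0.0388, adjusted p = 0.194 and 0.357), 0.74 among the male libraries and 0.75 as deviations from the group means, but it was 0.39 without the 2 farthest libraries and so rested on them over the 10 libraries. Without the 2 male libraries labelled Glut1-KO, 40 of 45 pairs were positive over the other 8 libraries, with a median r of 0.34, and r was 0.93 for Cpt1a and Acadl, 0.84 for Hadha and Acaa2, 0.86 for Slc25a20 and Acaa2, 0.87 for Cpt2 and Acadvl and 0.32 for Hadha and Hadhb. With library totals in place of TMM, 2 pairs passed by Pearson's r. Libraries that share a name number may not be independent.

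Other genes of fatty acid metabolism were read from the same fit in lists that share no gene with the members. Of these lists 0 genes passed in limma and 1 in DESeq2, which passed 1.35% of all genes. Among 22 tested genes of mitochondrial β-oxidation outside the 10, 18 averaged higher and 4 lower in libraries labelled Glut1-KO, and the median was 0.17 on the log2 scale. The 3 with the smallest p were Eci1 (0.27, limma adjusted p = 0.644), an isomerase for unsaturated chains, the thiolase Acat1 (0.26, adjusted p = 0.673) and Etfb (0.25, adjusted p = 0.677), a subunit of the electron transfer flavoprotein. Of 7 tested genes of ketone body metabolism 6 were higher and 1 lower, with a median of 0.41. Oxct1, which activates acetoacetate for use, averaged 154.3 ± 34.0 CPM in controls and 223.3 ± 26.4 CPM in libraries labelled Glut1-KO (SD over 5 libraries each), which gave a log2 fold change of 0.55 (limma adjusted p = 0.424, DESeq2 adjusted p = 0.0858), and the cytosolic thiolase Acat2 had 0.22 (limma adjusted p = 0.743).

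Peroxisomal β-oxidation, which shortens very long and branched chains, had 9 higher and 5 lower of 14 tested genes and a log2 median of 0.08, led by Abcd3 (0.27), an importer of acyl chains, Hsd17b4 (0.32), the bifunctional enzyme, and Decr2 (0.35), a reductase for unsaturated chains, at limma adjusted p-values of 0.612, 0.627 and 0.644. Fatty acid activation and carnitine supply had 8 higher and 5 lower of 13, a median of 0.11, and the smallest p for the mitochondrial carrier Slc25a29 (0.60, limma adjusted p = 0.627), the acetyl-CoA synthetase Acss1 (0.39, adjusted p = 0.674) and Aldh9a1 (0.38, adjusted p = 0.677), a dehydrogenase of carnitine synthesis, and Tmlhe was at 0 in all libraries. Regulators of fatty acid oxidation were split, 13 higher and 10 lower, with a median of 0.02. Acacb, the acetyl-CoA carboxylase whose malonyl-CoA inhibits Cpt1, averaged 19.8 ± 4.95 and 30.8 ± 5.33 CPM (SD over 5 libraries each), which gave a log2 fold change of 0.67 (limma adjusted p = 0.432, DESeq2 adjusted p = 0.0984). Ppara, the receptor that drives β-oxidation genes in liver, had 3.62 ± 1.05 and 6.13 ± 3.33 CPM (SD, n = 5 each; log2 fold change 0.66, limma adjusted p = 0.715), and Stk11, a kinase upstream of AMPK, had a log2 fold change of -0.29 (limma adjusted p = 0.677).

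Lists of other mitochondrial functions had medians close to that of all genes, -0.0049. The TCA cycle, which takes up the acetyl-CoA, had 10 higher and 8 lower of 18 genes and a log2 median of 0.03, with the succinate dehydrogenase subunit Sdhc at 0.34 (limma adjusted p = 0.624), the isocitrate dehydrogenase subunit Idh3a at -0.45 (adjusted p = 0.677) and the succinyl-CoA ligase subunit Suclg1 at 0.23 (adjusted p = 0.677). Mitochondrial import and upkeep had 11 higher and 13 lower of 24 genes and a median of -0.01, with the chaperonin Hspe1 at 0.27, prohibitin Phb at -0.25 and the mitochondrial DNA helicase Twnk at -0.25 (limma adjusted p = 0.676, 0.687 and 0.736). The plot of related lists sets these medians side by side, and no test was made between lists. In the fit of the 3 female libraries labelled Glut1-KO against all controls, no gene of the lists passed (0 in each). The members' median was then 0.24 (10 of 10 higher), that of other mitochondrial β-oxidation 0.18 (17 of 22), of ketone body metabolism 0.22 (4 of 7), of peroxisomal β-oxidation 0.21 (9 of 15), of the TCA cycle 0.02 (10 of 18), of mitochondrial import and upkeep -0.14 (8 of 24) and of the regulators -0.02 (11 of 23), and fatty acid activation and carnitine supply had 6 of 13 higher.

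**Figure D5:**
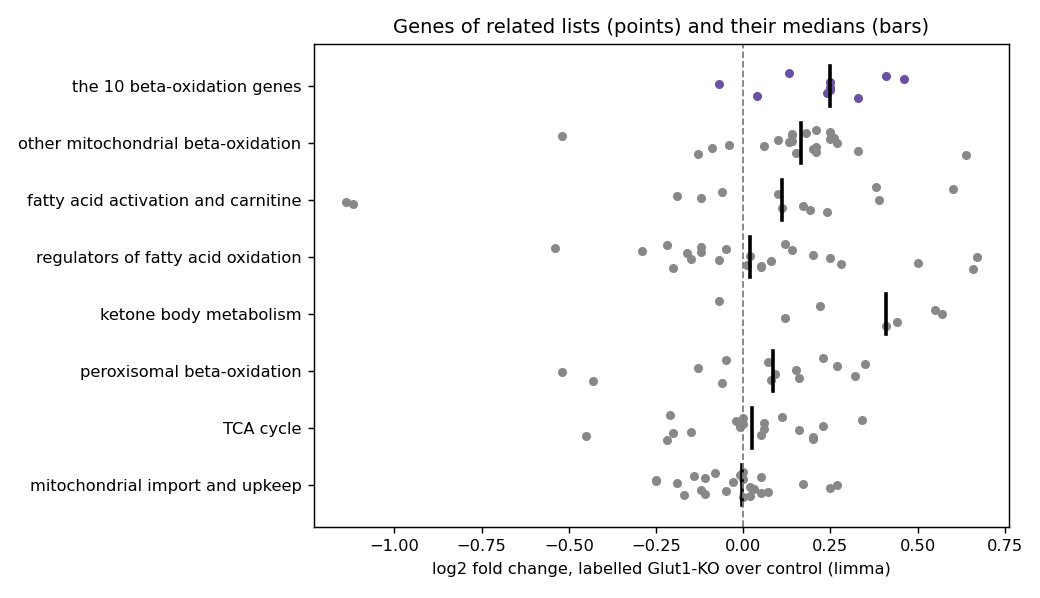
Log2 fold change (x axis, limma) of each tested gene in 8 lists, with 1 point per gene and a black bar at the median of the list. The medians are 0.25 for the 10 members, 0.17 for other mitochondrial β-oxidation, 0.41 for ketone body metabolism, 0.03 for the TCA cycle and -0.01 for mitochondrial import and upkeep, and all lists have points on both sides of 0.

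Marker lists of other cells and of handling were read beside the members, and 0 of their genes passed in limma. A list of 12 genes induced by dissociation, led by Egr1, had 12 of 12 lower in libraries labelled Glut1-KO, with sums of 6040 to 8158 CPM in controls and 3886 to 6570 CPM in libraries labelled Glut1-KO. Jun, Atf3 and Dusp1, named after their values were seen, were lower with no overlap between the groups, against 1.06% of all genes, and Jun and Atf3 passed in DESeq2 (adjusted p = 0.0236 and 0.000274). Leukocyte markers, led by Rac2, had 8 of 9 tested genes higher and none at 0 in all libraries. Of these 5, Ptprc, Laptm5, Coro1a, Tyrobp and Fcer1g, also named after their values were seen, were higher with no overlap, against 0.798% of all genes, and all 5 passed in DESeq2, against 1.35%. Ptprc, which encodes CD45, the target of the depletion beads, averaged 2.76 ± 0.451 CPM in controls and 7.92 ± 2.19 CPM in libraries labelled Glut1-KO (SD over 5 libraries each), and its log2 fold change was 1.47 (limma adjusted p = 0.23, DESeq2 adjusted p = 1.96e-06). The leukocyte sum overlapped, at 21.1 to 44.5 and 26.9 to 66.5 CPM, and 4 of 5 libraries labelled Glut1-KO, the 3 female at 50.6 to 66.5 CPM and male replicate 4 at 53.0 CPM, lay above all controls. Macrophage markers, led by Plet1, were higher for 6 of 8, at 67.7 to 98.2 and 53.4 to 152.8 CPM. Plet1 itself averaged lower, 43.9 CPM in controls and 25.8 CPM in libraries labelled Glut1-KO, as did Mrc1. Ear2, named after its values were seen, was free of overlap (against 0.798% of all genes) and passed in DESeq2 (adjusted p = 0.00321, against 1.35%). Its level was low, with means of 0.187 CPM in controls and 0.823 CPM in libraries labelled Glut1-KO.

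Endothelial markers, led by Vwf, were higher for 10 of 10, at 120.9 to 433.3 CPM in controls and 179.7 to 585.3 CPM in libraries labelled Glut1-KO. Ciliated cell markers, led by Tppp3, were lower for 8 of 8, at 13.6 to 235.2 and 18.7 to 56.8 CPM, and 1 of them, Foxj1, named after its values were seen, passed in DESeq2 (adjusted p = 0.00764). Club cell markers, led by Scgb1a1, were lower for 6 of 8, at 2320 to 12093 and 3202 to 9648 CPM. Fibroblast markers, led by Col3a1, were lower for 5 of 7, at 94.0 to 369.9 and 63.5 to 409.8 CPM, and erythroid markers, led by Hbb-bs, for 4 of 5, at 236.8 to 1461.7 and 188.8 to 751 CPM. Markers of alveolar type 1 cells, led by Ager, were split, 4 higher and 3 lower, at 1267 to 2155 and 1392 to 2768 CPM. Of proliferation genes, led by Mki67, 7 of 8 were lower, at 214.8 to 497.3 and 190.8 to 333.3 CPM, and 3 of 8 without the male libraries labelled Glut1-KO. Without those libraries the dissociation list had 8 of 12 lower, the leukocyte list 8 of 9 higher and the alveolar type 1 list 6 of 7 higher, and the endothelial list had 10 of 10 higher with a log2 median of 0.94, against 0.64 with them. AT2 markers were higher for 8 of 10. In controls, replicate 2 had the lowest AT2 sum (27866 CPM) and the lowest sum of the β-oxidation genes (910.9 CPM). Libraries labelled Glut1-KO ran otherwise, with the highest AT2 sum (73312 CPM) and the lowest β-oxidation sum (1117.1 CPM) both in replicate 1. Replicate 2 labelled Glut1-KO had 56645 CPM of AT2 markers and the highest β-oxidation sum, 1264.8 CPM. The part of these markers in the levels of the β-oxidation genes was not tested.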

How the data were processed

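Polyadenylated RNA of 10 libraries, 5 control and 5 labelled Glut1-KO, was prepared with a stranded TruSeq kit. Per the submitters' processing notes, the authors used bcl2fastq 2.17, cutadapt 1.4.2, HISAT2 (build mm10), featureCounts 1.4.4 and edgeR. The values analysed were the raw read counts per gene deposited by the authors for 39017 genes, with no normalization. The 10 single files equalled the combined table. A deposited table of log2 values was not used.

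Genes were kept with edgeR 4.0.16 filterByExpr (minimum count 10, minimum total 15), scaled by TMM, and tested with limma 3.58.1 on voom values (prior count 0.5) with the group as the only term in R 4.3.3, as the study names TMM, voom and limma. Benjamini-Hochberg adjustment covered all 15922 genes, with a threshold of 0.05. The scripts were tested on simulated data. Exact 2-sided permutation tests and correlations (100000 permutations, SciPy 1.17.1) used log2(TMM-scaled CPM + 0.5). Exon lengths and overlaps came from GENCODE M21 (GRCm38), in which 96.6% of identifiers were found, and RPKM used the principal transcript. Promoters came from RefSeq. Alternatives were other scalings and filters, edgeR, DESeq2 1.42.0, limma-trend, sample weights, sex, blocks, subsets and leaving out each library. The 3-group fit, and lists and correlations without the male libraries labelled Glut1-KO, were added after seeing the data. Members and lists were chosen with earlier results of these data known. All members were named, of each related list the 3 genes with the smallest limma p (1 allele and 1 list gene are not reported here), of each marker list the highest marker and any at 0 (others are said to be named after their values were seen), and the 5 genes whose levels followed the members' mean most closely.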

Additional observations from a re-analysis of the deposited data

Results flagged for a closer look

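Replicate 3 labelled Glut1-KO had 36.1 CPM of Hadhb, far from the other 4 libraries of that group, which spanned 70.2 to 79.1 CPM. In the same library the Hadha to Hadhb ratio per length was 3.28, against 1.28 to 1.82 in the other 4, while Hadha itself, at 232.7 CPM, was inside the range of its group. Both come from the same low Hadhb value. Without this library the Hadhb log2 fold change was 0.67 in place of 0.46. Among 24 groups of 5 checked for a sample far from the others, these were the 2 found, and chance gives about 1 in 20.

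Acadvl differed in direction between the female and the male libraries labelled Glut1-KO. The female libraries spanned 111.7 to 115.7 CPM and the male libraries 81.3 to 86.3 CPM. The female minus male difference was 0.45 on the log2 scale (SE 0.24) and did not pass the limma test of the difference (adjusted p = 0.338). The male libraries share a name number and may not be independent. Against controls, Cpt2 (0.09 in female and -0.04 in male libraries) and Etfdh (0.24 and -0.03) also differed in sign.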

How the results depend on the processing

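The result that no member passed held in all 25 fits of the groups, with the smallest adjusted p of any member between 0.129 (DESeq2) and 0.782 (without control replicate 4). The members' median log2 fold change stayed between 0.16 (sample quality weights) and 0.29, and 7 to 10 members were higher. The number of genes passed over the whole table, 0 in limma, was 215 with DESeq2, 3 with sex as a covariate, 1 among male libraries, 9 for female libraries labelled Glut1-KO against all controls and 2 with counts summed per name number, and 0 to 1 when each library was left out in turn, the 1 without control replicate 3. The cause was not tested. With sample quality weights the log2 fold change was 0.19 for Cpt1a (0.33 without), 0.13 for Acadl (0.25) and 0.11 for Acadm (0.25). Signs turned for 3 members with small differences. No control was female, so 3 of the fits below give the same comparison, the male libraries labelled Glut1-KO against the controls. They are the fit with sex as a covariate, that of the male libraries and the male part of the 3-group fit, and they do not count as separate checks. Cpt2 had -0.04 with sex as a covariate, among male libraries and in the 3-group fit for male libraries, and -0.01 to 0.12 with each library left out. Acadvl had 0.12 for female libraries against controls, 0.11 in the 3-group fit, and -0.19 to 0.06 with each library left out, being 0.06 without control replicate 3 and 0.01 without Glut1-KO replicate 4. Etfdh had -0.03 with sex as a covariate, among male libraries and in the 3-group fit, and 0.06 to 0.20 with each library left out. The number of correlated pairs was 2 with library totals, against 0. With the replicate block the median was 0.25, 0 members and 0 genes passed, and the pairing was not supported, since same-numbered libraries correlated at 0.04, -0.09, 0.03, 0.20 and -0.13 and only replicate 4 correlated best with its own number. The lowest count of a member in any library was 834.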

Other observations

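Outside the pathway lists, the 5 genes whose log2 levels followed the members' mean standardized level most closely over the 10 libraries were Rnf115 (Pearson's r 0.945), 2310035C23Rik (0.945), Phkb (0.932), Snx25 (0.932) and Fam126b (0.926). They were picked as the highest of all tested genes, so these values are a description. Phkb, a regulatory subunit of phosphorylase kinase in glycogen breakdown, averaged 88.9 ± 30.2 CPM in controls and 132.8 ± 32.2 CPM in libraries labelled Glut1-KO (SD, n = 5 each; log2 fold change 0.61, limma adjusted p = 0.612). Snx25, a sorting nexin, averaged 172.3 ± 28.5 and 224.5 ± 30.2 CPM (SD, n = 5 each; log2 fold change 0.39, limma adjusted p = 0.57).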
